A study of Arabidopsis thaliana with 12 samples.

Results

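A set of 9 genes of the low-oxygen programme was followed across wild-type and arginyl transferase mutant seedlings of Arabidopsis thaliana. The genes are LBD41 (AT3G02550), HRA1 (AT3G10040), HB1 (AT2G16060), FTM1 (AT1G43800), AT4G24110, AT3G27220, AT2G17850, AT1G12805 and AT5G10040. They were named by a rule that used the measured difference between the genotypes in these libraries, so that their genotype values are given here as a description without a test. The deposited table held a row for 8 of the 9 genes among its 23739 genes, and AT5G10040 was not analysed here. Whole seedlings of the double mutant ate1-2 ate2-1, called a1a2 and in the Col-0 background, and of Col-0, the wild type, were treated at an age of 10 days for 1 h with 1 µM flg22 or with water as mock. All seedlings had grown in continuous light on sucrose medium, and the 50 seedlings of a genotype and treatment were pooled from 2 wells of liquid medium. Poly(A) RNA was sequenced from 3 biological replicates of flg22-treated a1a2, flg22-treated Col-0, mock-treated a1a2 and mock-treated Col-0, which gave 12 libraries. The genes were not chosen on the flg22 response, so flg22 was tested against mock within each genotype and averaged over both genotypes. The mock libraries enter both the choice and the tests within a genotype. This can lean the change down in a1a2 and up in Col-0, and the average takes in both leans. That LBD41 and AT4G24110 passed a test of the difference between these responses was also known when the genes were chosen.

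The Arg/N-degron pathway ties the life time of proteins to their N-terminus. In air, plant cysteine oxidases oxidise the N-terminal cysteine of ERF-VIIs, the ethylene response transcription factors of group VII, arginyl transferases encoded by ATE1 and ATE2 attach an arginine to it, and the ubiquitin ligase PRT6 then marks the protein for degradation. When oxygen is short, or when the pathway is broken by mutation, ERF-VIIs accumulate and switch on genes of fermentation, sugar use and oxygen sensing. The peptide flg22 comes from bacterial flagellin and elicits pattern-triggered immunity in leaves and roots, with an early burst of transcription.

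The libraries held between 20285662 and 22433536 estimated counts, and 20439 genes passed the filter on low counts, all 8 genes of the set among them. Levels are in CPM, counts scaled to a common library size after normalisation. ATE1 measured 2.77, 4.22 and 2.47 CPM in flg22-treated a1a2 against 28.4, 24.8 and 20.8 CPM in flg22-treated Col-0, and 2.72, 2.89 and 2.19 CPM in mock-treated a1a2 against 22.9, 22.1 and 22.2 CPM in mock-treated Col-0. ATE2 lay between 0.148 and 0.513 CPM in the 6 a1a2 libraries and between 4.68 and 6.73 CPM in the 6 Col-0 libraries, so that both transcripts matched the labels. The summed level of 7 root markers ran from 3192 to 4608 CPM in flg22-treated a1a2, from 4595 to 4634 CPM in flg22-treated Col-0, from 3706 to 4441 CPM in mock-treated a1a2 and from 3691 to 5152 CPM in mock-treated Col-0, and that of 7 shoot markers from 52940 to 74480 CPM, 37630 to 77460 CPM, 53240 to 71370 CPM and 48450 to 69060 CPM in the same groups, as whole seedlings would give. In whole seedlings, more cells that express a gene and more RNA per cell cannot be told apart.

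Stretches of promoter are shown for the members that flg22 raised, LBD41 and AT4G24110, and for members that did not pass the test after flg22 but hold the same letters. The 500 bases before the annotated start of each of 27443 genes in the RefSeq annotation of TAIR10.1 were searched on both strands for the W box core TTGAC of WRKY factors, for the GCC box core GCCGCC of ERF factors and for the G box CACGTG. Capitals mark the match, each stretch runs 5′ to 3′ on the strand of its gene, and GTCAA is the W box core read on the other strand.
LBD41, W box core, chr3:538430-538474, minus strand: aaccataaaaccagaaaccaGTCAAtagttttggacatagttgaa
AT4G24110, W box core, chr4:12520962-12521006, minus strand: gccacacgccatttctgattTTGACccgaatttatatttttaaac
FTM1, W box core, chr1:16577140-16577184, plus strand: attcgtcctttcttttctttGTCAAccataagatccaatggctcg
AT3G27220, G box beside a W box core, chr3:10053889-10053934, minus strand: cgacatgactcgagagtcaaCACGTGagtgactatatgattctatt

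The W box core was common, with 6 of the 9 promoters against 67.4% of all promoters, and lay at positions -88 to -84 from the start in AT4G24110. A GCC box core was found in 1 of the 9, AT2G17850, at positions -104 to -99 (4.12% of all promoters), and a G box in 3 of the 9, LBD41, AT1G12805 and AT3G27220 (9.35% of all promoters). The W box core and the G box of AT3G27220 were next to each other without sharing a base. HRA1 held none of these letters in this window. The stretches of AT3G27220, HB1 and AT5G10040 that hold a W box core overlap the neighbouring genes AT3G27230, AT2G16070 and AT5G10030. The matches are given as letters only, since binding was not measured.

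**Figure D1:**
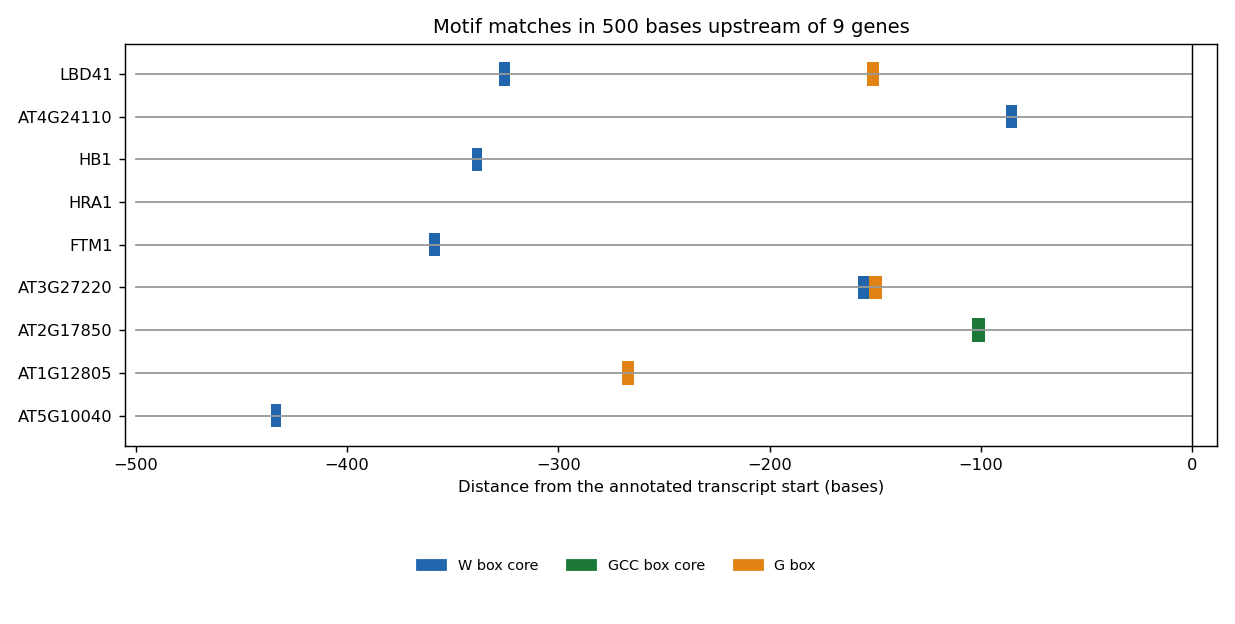
Positions of the 3 motifs in the 500 bases before the annotated transcript start of the 9 genes, with the distance from the start in bases on the horizontal axis and a gene in each row. Coloured blocks are matches on either strand and are drawn to scale. The W box core is in 6 of the 9 windows, and HRA1 has no match.

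Among the genes called higher in a1a2 than in Col-0 in mock, which were 28 or 0.137% of the tested genes, were 7 of the 8 members. After flg22 they were 4 of the 21 genes called higher, which is 0.103% of the tested genes. The members were chosen on this contrast, and nothing is read from these counts. With the replicate number as a block, 8 of the 8 were called in mock, among 91 genes called higher (0.445%), and 7 of the 8 after flg22, among 63 (0.308%). DESeq2 called 8 in mock and 7 after flg22, with the block and without it. Over all tested genes it called 60 higher in mock and 45 after flg22 without the block, and 108 and 84 with it. AT4G24110, the member that edgeR's quasi-likelihood test called in mock only with the block, did not overlap between the genotypes in mock and did overlap after flg22. The size of the difference varied over the set. The a1a2 to Col-0 difference in mock, on the log2 scale with its SE, was 2.17 ± 0.32 for HRA1, 2.40 ± 0.31 for AT3G27220, 2.93 ± 0.54 for AT4G24110, 3.54 ± 0.44 for HB1, 3.72 ± 0.52 for LBD41 and 5.71 ± 0.86 for FTM1. AT2G17850 and AT1G12805 were at or near 0 counts in Col-0 and are described by their counts.

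**Figure D2:**
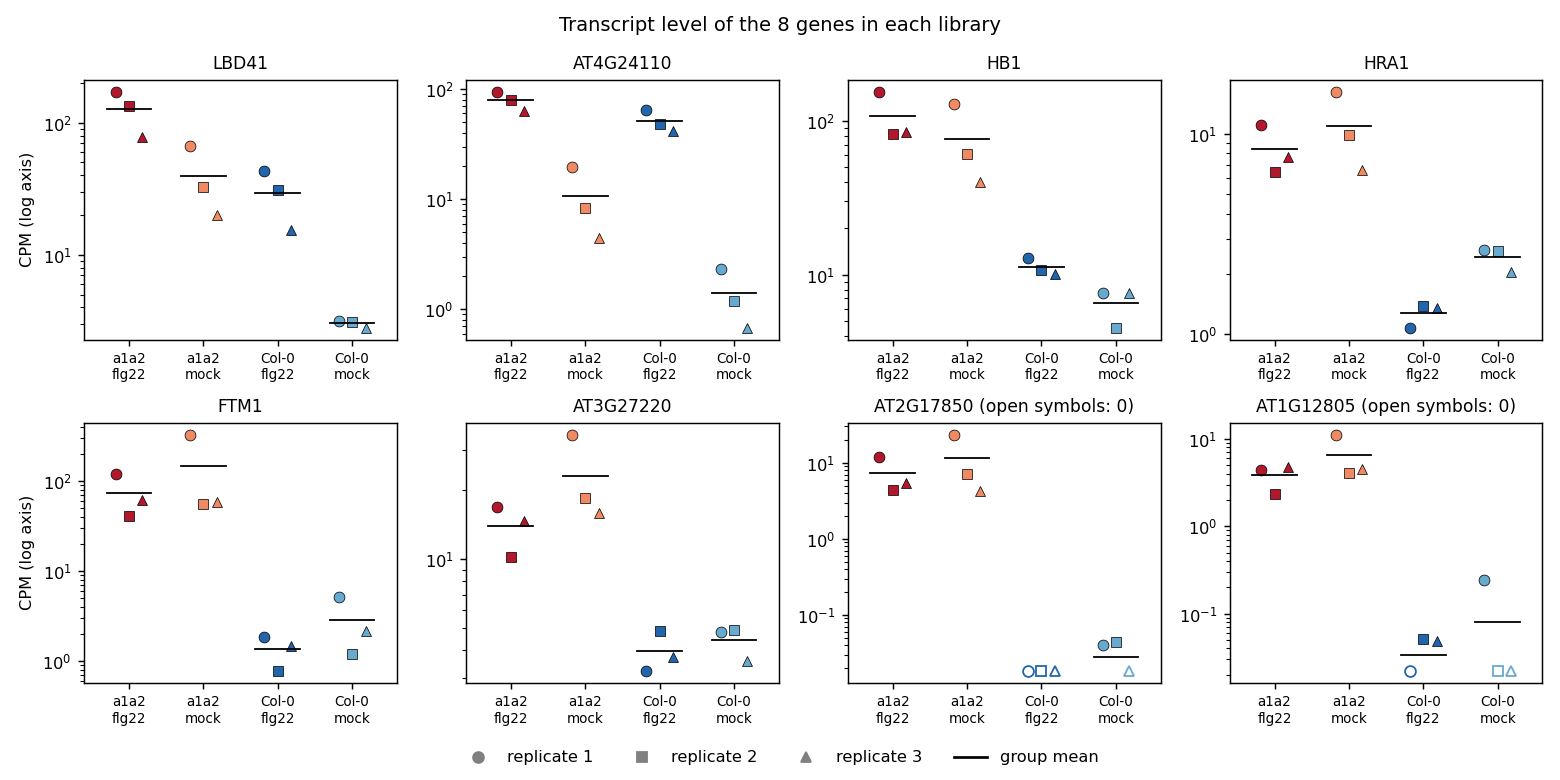
CPM of the 8 genes in each library, on a log axis of its own in each panel, with the groups flg22-treated a1a2, mock-treated a1a2, flg22-treated Col-0 and mock-treated Col-0 from left to right. Circles, squares and triangles are replicates 1, 2 and 3, horizontal lines are group means, and open symbols at the bottom stand for 0 counts. LBD41 and AT4G24110 are high after flg22 in both genotypes. All genes but AT4G24110 separate a1a2 from Col-0 in both treatments. The libraries of AT4G24110 do so in mock only, and after flg22 a1a2 is higher than Col-0 within each replicate number.

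LBD41 encodes a LATERAL ORGAN BOUNDARIES domain transcription factor and lies on chromosome 3 with 2 exons (536500-538126, minus strand, TAIR10.1). Its level was 172, 133 and 78.3 CPM in flg22-treated a1a2 against 66.3, 32.7 and 20.1 CPM in mock-treated a1a2. In Col-0 it was 42.8, 30.7 and 15.3 CPM after flg22 against 3.15, 3.10 and 2.80 CPM after mock. The 3 mock-treated Col-0 libraries were lower than all others, and the flg22 and mock libraries did not overlap in either genotype. LBD41 rose after flg22 by 1.69 ± 0.45 (log2, SE) in a1a2, adjusted p = 0.0166 by edgeR's quasi-likelihood test, and by 3.29 ± 0.51 in Col-0, adjusted p = 0.000533. The group means were therefore 3.22-fold higher after flg22 in a1a2 and 9.81-fold higher after flg22 in Col-0. Mock-treated a1a2 and flg22-treated Col-0 held 39.7 ± 23.9 and 29.6 ± 13.8 CPM of LBD41 (SD, n = 3 each), and their libraries overlapped. The call in a1a2 depended on single libraries: the adjusted p was 0.076 without replicate 1 of flg22-treated a1a2, 0.0646 without replicate 2 of mock-treated a1a2 and 0.0523 without replicate 3 of mock-treated a1a2, and it was 0.233 without all libraries of replicate number 2. The call in Col-0 was kept in each of 12 fits that left out a library.

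HRA1 (HYPOXIA RESPONSE ATTENUATOR1) encodes a trihelix transcription factor that is itself induced by ERF-VIIs and that restrains RAP2.12, and it lies on chromosome 3 in a single exon (3096345-3098417, minus strand). It measured 11.1, 6.47 and 7.65 CPM in flg22-treated a1a2 against 16.3, 9.85 and 6.65 CPM in mock-treated a1a2. In Col-0 the values were 1.08, 1.39 and 1.36 CPM after flg22 against 2.63, 2.61 and 2.04 CPM after mock. The Col-0 libraries of the 2 treatments did not overlap and those of a1a2 did. The change after flg22 was -0.38 ± 0.29 in a1a2 (log2, SE, adjusted p = 0.399) and -0.92 ± 0.35 in Col-0 (adjusted p = 0.0766). With the replicate number as a block the Col-0 value was -0.91 with an adjusted p = 0.0305, and the fits without replicate 1 or replicate 3 of mock-treated a1a2 gave an adjusted p of 0.0233 and 0.0357. DESeq2 called HRA1 lower in Col-0 without the block (-0.94, adjusted p = 0.0409) and with it (-0.92, adjusted p = 0.00863). The Col-0 call was made in 5 of 11 alternatives that kept every library or dropped a replicate number, and in 2 of 12 fits without a library. Averaged over both genotypes, HRA1 fell by 0.65 ± 0.23 on the log2 scale, adjusted p = 0.0408, a call that was kept in 3 of 12 fits without a library and reached an adjusted p between 0.0527 and 0.0854 in the others.

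HB1 encodes a non-symbiotic haemoglobin, which keeps nitric oxide low when oxygen is short, and lies on chromosome 2 with 4 exons (6982531-6983777, minus strand). Its level was 156, 82.0 and 85.3 CPM in flg22-treated a1a2 against 129, 60.7 and 39.8 CPM in mock-treated a1a2, and the treatments overlapped. In Col-0 it was 12.9, 10.8 and 10.1 CPM after flg22 against 7.60, 4.52 and 7.60 CPM after mock, without overlap. HB1 did not pass the test after flg22 in a1a2, where the log2 change was 0.49 ± 0.39 (adjusted p = 0.41), nor in Col-0, where it was 0.77 ± 0.42 (adjusted p = 0.21). With the replicate number as a block the Col-0 change was 0.78 with an adjusted p = 0.0496. The average over genotypes was 0.63 ± 0.29 (adjusted p = 0.101) and, with the block, 0.67 (adjusted p = 0.0101). Without replicate 1 of mock-treated a1a2 HB1 was called, at 1.06 in a1a2 (adjusted p = 0.0364) and 0.90 averaged (adjusted p = 0.00831). Mock-treated a1a2 held 6.80 times the HB1 level of flg22-treated Col-0.

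FTM1 encodes an enzyme of the stearoyl-acyl carrier protein desaturase family, which places a double bond in a fatty acid with the use of oxygen, and lies on chromosome 1 with 3 exons (16577521-16579722, plus strand). It measured 120.0, 41.3 and 61.5 CPM in flg22-treated a1a2 against 329.5, 56.5 and 59.4 CPM in mock-treated a1a2. Replicate 1 of mock-treated a1a2 stood far above the other libraries. In Col-0 the level was 1.85, 0.774 and 1.46 CPM after flg22 against 5.10, 1.20 and 2.17 CPM after mock. The change after flg22 was -1.0 ± 0.69 in a1a2 (log2, SE, adjusted p = 0.335) and -1.06 ± 0.90 in Col-0 (adjusted p = 0.447), and it did not pass the test. Without replicate 1 of mock-treated a1a2 the FTM1 value in a1a2 was 0.33. Averaged over genotypes it was -1.03 ± 0.57 (adjusted p = 0.177), and -0.83 with an adjusted p = 0.0192 with the replicate number as a block.

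AT4G24110 is a single-exon gene on chromosome 4 (12519907-12520898, minus strand) that RefSeq annotates as an NADP-specific glutamate dehydrogenase, and it had the largest log2 response to flg22 of the 6 genes with a fold change in both genotypes. It measured 94.7, 80.1 and 63.3 CPM in flg22-treated a1a2 against 19.4, 8.28 and 4.46 CPM in mock-treated a1a2. In Col-0 it measured 63.8, 48.3 and 41.4 CPM after flg22 against 2.31, 1.20 and 0.680 CPM after mock. Every flg22 library was higher than every mock library. AT4G24110 rose by 2.88 ± 0.48 (log2, SE) in a1a2, adjusted p = 0.000818, and by 5.18 ± 0.57 in Col-0, adjusted p = 3.5e-05. The value in a1a2 was 2.72 with an adjusted p = 0.0634 without the libraries of replicate number 2, and the calls were kept in each of 12 fits without a single library. The group means were 7.40-fold higher after flg22 in a1a2 and 36.7-fold higher after flg22 in Col-0. In contrast to LBD41, its level in mock-treated a1a2 was 0.209 times that in flg22-treated Col-0, without overlap. After flg22 the a1a2 and Col-0 libraries overlapped, with a difference between the genotypes of 0.63 ± 0.44 (log2, SE). Within replicate numbers 1, 2 and 3 this difference was 0.57, 0.73 and 0.61, with a1a2 the higher in each.

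AT3G27220 is annotated as a galactose oxidase or kelch repeat protein, and lies on chromosome 3 with 7 exons (10051069-10053761, minus strand). Its level was 17.0, 10.2 and 14.8 CPM in flg22-treated a1a2 against 35.1, 18.6 and 16.0 CPM in mock-treated a1a2. In Col-0 it was 3.24, 4.85 and 3.74 CPM after flg22 against 4.77, 4.87 and 3.57 CPM after mock. The treatments overlapped in both genotypes. The log2 change after flg22 was -0.73 ± 0.29 in a1a2 (adjusted p = 0.0849) and -0.16 ± 0.32 in Col-0 (adjusted p = 0.773). With the replicate number as a block the a1a2 value was -0.69 and the adjusted p = 0.0409, and without replicate 3 of mock-treated a1a2 it was -0.94 with an adjusted p = 0.0372. DESeq2 gave -0.70 (adjusted p = 0.015) with the block and -0.75 (adjusted p = 0.0558) without it. Scaling to library size alone in edgeR gave -0.99 (adjusted p = 0.0257). The a1a2 call was made in 3 of 11 alternatives that kept every library or dropped a replicate number, and in 1 of 12 fits without a library.

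AT2G17850, annotated with a rhodanese domain and lying on chromosome 2 (7760005-7760839, minus strand), and AT1G12805, annotated as a nucleotide binding protein and lying on chromosome 1 (4366577-4367136, plus strand), were close to absent from Col-0. AT2G17850 measured 11.9, 4.33 and 5.48 CPM in flg22-treated a1a2 and 23.4, 7.18 and 4.24 CPM in mock-treated a1a2. In Col-0 it had 0 counts in the 3 flg22 libraries together and 2 counts in the 3 mock libraries together. AT1G12805 measured 4.39, 2.35 and 4.74 CPM in flg22-treated a1a2 and 11.2, 4.07 and 4.55 CPM in mock-treated a1a2, with 2 counts in flg22-treated Col-0 and 6 counts in mock-treated Col-0 over 3 libraries each. Both genes were found in 6 of 6 a1a2 libraries, AT2G17850 in 2 of 6 Col-0 libraries and AT1G12805 in 3 of 6. As a description, AT2G17850 was at least 144-fold higher in a1a2 than in Col-0 after flg22, reckoned against 3 counts over the group (the exact counting interval for 0 counts starts at 117), and 425-fold higher in mock with a 95% counting interval of 117 to 3520. AT1G12805 was 114-fold higher after flg22 (31.3 to 949) and 79.8-fold higher in mock (36.4 to 219). All 6 of its counts in mock-treated Col-0 came from replicate 1. These exact binomial 95% intervals cover counting error only. The flg22 change in a1a2 did not pass the test for AT2G17850 (log2 -0.68 ± 0.60, SE, adjusted p = 0.474) or AT1G12805 (-0.79 ± 0.50, adjusted p = 0.291). At these counts a fall in Col-0 was not detectable, and the counts in Col-0 did not rise after flg22.

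Over the set, 2 of the 8 genes rose after flg22 in a1a2 and none fell, while 13.9% of all tested genes rose and 7.29% fell. In Col-0 the same 2 genes, LBD41 and AT4G24110, rose and none was called lower, against 13.9% and 7.06% of all genes. DESeq2 did call HRA1 lower there, and with the replicate number as a block it called AT3G27220 lower in a1a2. Averaged over the genotypes, LBD41 (2.49 ± 0.34, adjusted p = 0.000124) and AT4G24110 (4.03 ± 0.37, adjusted p = 4.57e-06) rose and HRA1 fell, against 15.3% of all genes higher and 8.88% lower. With the replicate number as a block, 2 members rose and 1 fell in a1a2, beside 3160 and 1915 of the 20439 tested genes. In Col-0, 3 rose and 1 fell with the block, beside 3132 and 1894. For the average, 3 rose and 2 fell with the block, beside 3253 and 2004. Nothing particular to the set is read from such counts among 8 genes. Of the DEGs over all genes, 65.5% were higher after flg22 in a1a2 and 66.3% in Col-0, and with scaling to library size alone these shares were 39.8% and 40.1%. The median log2 change of the 8 members was -0.53 in a1a2 and -0.54 in Col-0, beside 0.00 and -0.01 over all genes, with AT2G17850 and AT1G12805 entering the Col-0 median through fitted values near 0 counts. The lean from the shared mock libraries, down in a1a2 and up in Col-0, can enter these medians too.

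**Figure D3:**
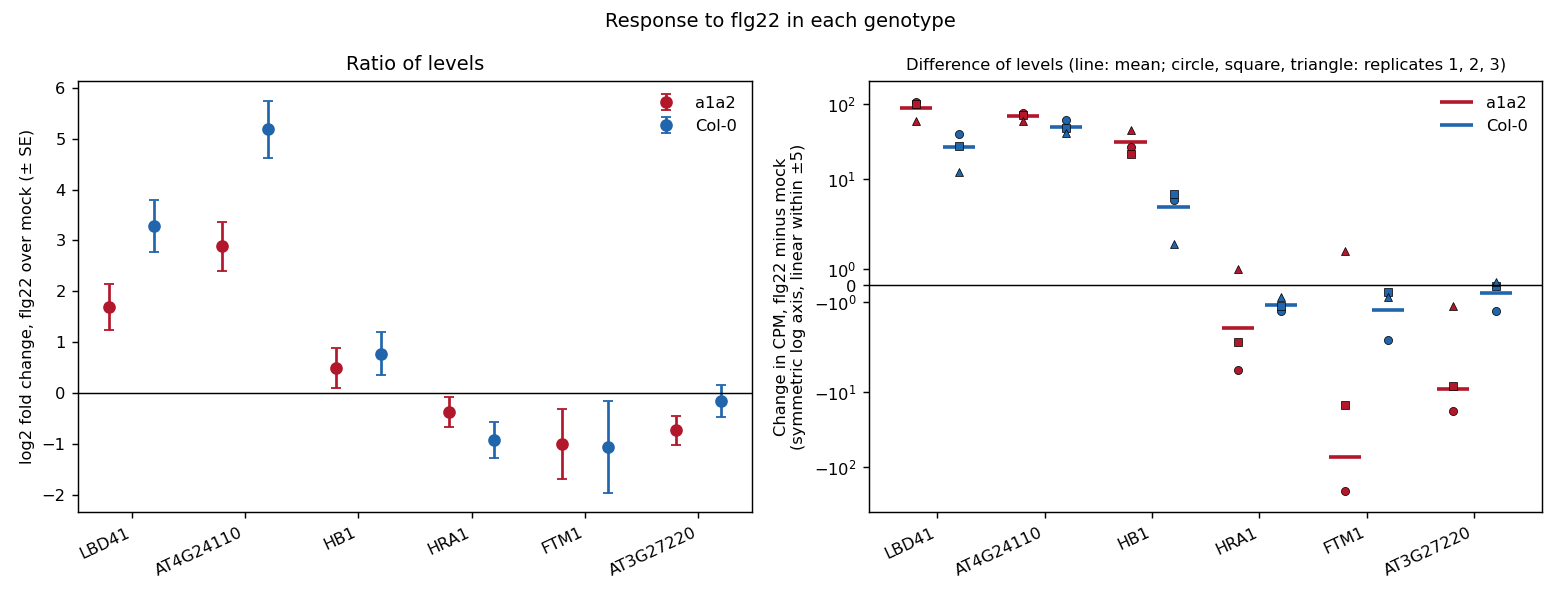
Response to flg22 of 6 of the genes, with a1a2 on the left and Col-0 on the right of each pair. The first panel gives the log2 fold change of flg22 over mock with its SE. The second gives the change in CPM, flg22 minus mock, of each replicate number (circle, square and triangle for 1, 2 and 3) and the mean as a line, on a symmetric log axis that is linear between -5 and 5. LBD41 and AT4G24110 have a smaller log2 change and a larger CPM change in a1a2 than in Col-0.

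For LBD41 and AT4G24110, the order of the genotypes on the CPM scale was the reverse of that on the log2 scale. The rise of LBD41 after flg22 was 106, 100 and 58.1 CPM in a1a2 in replicates 1, 2 and 3, against 39.6, 27.6 and 12.5 CPM in Col-0, and the genotypes did not overlap. For AT4G24110 it was 75.3, 71.8 and 58.8 CPM in a1a2 and 61.5, 47.1 and 40.7 CPM in Col-0. The ranges of the genotypes overlapped, and within each replicate number the rise was larger in a1a2. HB1 gained 31.2 ± 12.6 CPM in a1a2 and 4.67 ± 1.95 CPM in Col-0 (SD, n = 3 each), although its log2 change did not pass the test in either genotype. LBD41 and AT4G24110 showed a smaller ratio and a larger gain in a1a2 in the same libraries, and the reason was not tested. FTM1, AT3G27220 and HRA1, also higher in a1a2 in mock, changed on average by -74.2, -9.24 and -2.52 CPM in a1a2. In Col-0 these 3 genes changed by -1.46, -0.46 and -1.15 CPM. The mock libraries that entered the choice of the genes also enter these changes.

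The interaction, which is the log2 response in a1a2 minus that in Col-0, was -2.30 ± 0.70 for AT4G24110 (SE, adjusted p = 1 by edgeR's quasi-likelihood test) and -1.61 ± 0.66 for LBD41 (adjusted p = 1). It was -0.57 ± 0.43 for AT3G27220, -0.28 ± 0.57 for HB1, 0.06 ± 1.08 for FTM1 and 0.54 ± 0.46 for HRA1. Over all genes the test called 0 (0%), with 188 genes at an unadjusted p under 0.05, 2 of them members (AT4G24110 and LBD41), and DESeq2 called 0. With DESeq2 and the replicate number as a block, 4 genes were called, AT5G24240, CBP60G, AT4G24110 (-2.22, adjusted p = 1.25e-05) and LBD41 (-1.40, adjusted p = 0.0179), and the last 2 were known to pass there when the genes were chosen. Under edgeR with the same block the values were -2.23 for AT4G24110 and -1.45 for LBD41, each with an adjusted p = 1. Genes selected for a high a1a2 level in mock lean towards a negative interaction, because the mock libraries enter both values. Within the replicate numbers 1, 2 and 3 the interaction was -2.46, -1.97 and -1.95 for AT4G24110 and -2.35, -1.25 and -0.46 for LBD41, negative in 3 of 3 for both. It was also negative in each for AT3G27220 (-0.50, -0.85 and -0.18) and positive in each for HRA1 (0.67, 0.26 and 0.75). For HB1 and FTM1 the sign differed between the numbers. The same mock libraries enter these values, so their signs are no independent support.

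The members varied together between replicates. In mock-treated a1a2, replicate 1 was the highest of the 3 for 8 of 8 members, where 34.3% of all genes had their highest value, at 1.98 to 5.69 times the mean of replicates 2 and 3. In flg22-treated a1a2 it was the highest for 7 of 8, at 1.32 to 2.44 times that mean, with AT1G12805 as the exception at 1.24 times. In Col-0, replicate 1 was the highest for 4 of 8 after flg22 and for 6 of 8 in mock. FRK1, a kinase gene used as a marker of the flg22 response, also stood apart in replicate 1. It measured 37.2, 13.9 and 5.67 CPM in flg22-treated a1a2, 89.1, 16.2 and 11.4 CPM in flg22-treated Col-0, 9.95, 0.263 and 0.656 CPM in mock-treated a1a2 and 9.26, 0.93 and 2.80 CPM in mock-treated Col-0. Replicate 1 also had the lowest summed level of the shoot markers in 4 of 4 groups, at 52940 CPM in flg22-treated a1a2, 37630 CPM in flg22-treated Col-0, 53240 CPM in mock-treated a1a2 and 48450 CPM in mock-treated Col-0, and the lowest of the root markers in 3 of 4. The part of this replicate and of the markers in the members' values was not tested beyond the fits without the replicate.

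**Figure D4:**
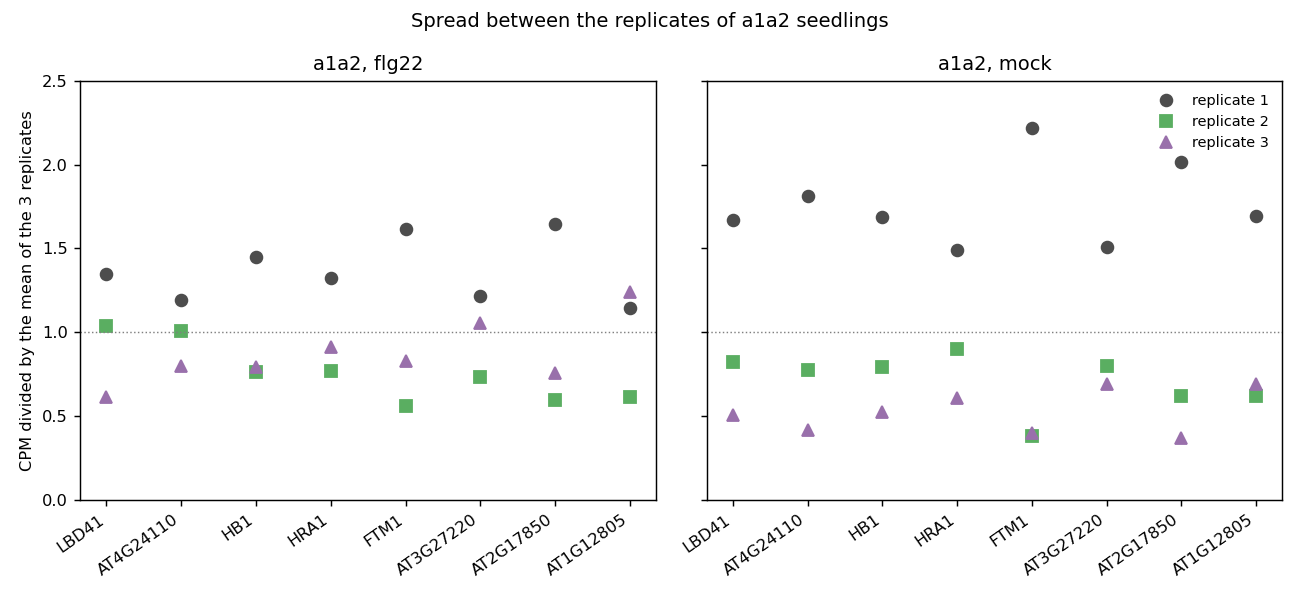
CPM of the 8 genes in each replicate of a1a2 divided by the mean of the 3 replicates of that treatment, flg22 in the left panel and mock in the right panel. Circles, squares and triangles are replicates 1, 2 and 3, and the dotted line marks the mean. In mock-treated a1a2, replicate 1 lies above the other replicates for all 8 genes.

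The SD of FTM1 was 106% of its mean in mock-treated a1a2, and that of LBD41 was 6.25% of its mean in mock-treated Col-0. Per kilobase of transcript, which allows levels of different genes to be compared, the order in mock-treated a1a2 was FTM1 at 99.7, HB1 at 77.4, LBD41 at 26.2, AT2G17850 at 18.7, AT1G12805 at 11.8, AT3G27220 at 10.95, AT4G24110 at 10.8 and HRA1 at 5.27 CPM per kilobase. Over the 3 libraries the ranges of neighbours in this order overlapped. Within each library, HB1 was above LBD41 in 3 of 3, by 2.85 to 3.03 times, LBD41 was above AT2G17850 in 3 of 3 and AT4G24110 was above HRA1 in 3 of 3, while the other neighbours changed places between libraries. After flg22 in a1a2, HB1 (109), LBD41 (84.3) and AT4G24110 (80.0 CPM per kilobase) led.

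Of 41 other genes of the low-oxygen response, which were listed with earlier results of these libraries known, 10 were higher in a1a2 than in Col-0 in mock and 8 after flg22, and none were lower. Over all tested genes, 0.137% were called higher in mock and 0.103% after flg22. Because of how the list was made, its genotype counts, medians and adjusted p-values are a description and no independent support. The medians were 0.71 in mock and 0.58 after flg22 on the log2 scale, beside -0.01 and 0.00 over all genes. PCO1, a plant cysteine oxidase that starts the degradation of ERF-VIIs, was 5.63 ± 0.28 higher after flg22 (log2, SE, adjusted p = 7.96e-06) and 5.21 ± 0.27 higher in mock (adjusted p = 1.42e-05). AT4G10270, annotated from its response to wounding, was 4.78 ± 0.54 higher after flg22 (adjusted p = 0.0033) and 4.20 ± 0.46 higher in mock (adjusted p = 0.00311). SUS4, a sucrose synthase, was 4.03 ± 0.37 higher after flg22 (adjusted p = 0.000785), and AT1G33055 was 3.83 ± 0.62 higher in mock (adjusted p = 0.0415). With the replicate number as a block, 18 were higher after flg22 and 17 in mock, with AT3G10020 lower in mock. Over all tested genes the block called 63 (0.308%) higher after flg22, and 91 (0.445%) higher and 105 lower in mock.

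After flg22, 6 of the 41 rose and 1 fell in a1a2, and 7 rose and 1 fell in Col-0, with medians of 0.31 and 0.26. Over all tested genes 13.9% rose and 7.29% fell in a1a2, and 13.9% rose and 7.06% fell in Col-0, and nothing particular to the list is read from these counts. AT5G26200 was the gene that fell in both, with a log2 change of -1.45 ± 0.24 in a1a2 (SE, adjusted p = 0.000847) and -1.53 ± 0.25 in Col-0 (adjusted p = 0.000716). With the block, the counts of the 41 that rose and fell were 11 and 3 in a1a2 and 10 and 3 in Col-0. Over all tested genes they were 3160 and 1915 in a1a2 and 3132 and 1894 in Col-0. CML38, a calmodulin-like protein induced by low oxygen and by wounding, rose by 3.02 ± 0.45 in a1a2 (log2, SE, adjusted p = 0.000395) and by 4.29 ± 0.50 in Col-0 (adjusted p = 6.41e-05). Its level was 39.9, 56.5 and 39.7 CPM in flg22-treated a1a2 against 9.59, 5.47 and 1.62 CPM in mock-treated a1a2, and 34.2, 26.2 and 34.4 CPM in flg22-treated Col-0 against 1.98, 1.64 and 1.19 CPM in mock-treated Col-0. RBOHD, the NADPH oxidase of the immune oxidative burst, rose by 3.56 ± 0.17 in a1a2 (adjusted p = 3.79e-08) and by 3.37 ± 0.16 in Col-0 (adjusted p = 6.6e-08). PHI-1 rose by 3.62 ± 0.43 in a1a2 (adjusted p = 6.17e-05) and by 2.84 ± 0.41 in Col-0 (adjusted p = 0.000325). HRE1, which encodes an ERF-VII, rose by 0.97 ± 0.26 in a1a2 (adjusted p = 0.0163) and by 0.83 ± 0.27 in Col-0 (adjusted p = 0.0408). HRE2, another ERF-VII gene, had a value of 0.51 ± 0.33 in a1a2 (adjusted p = 0.3) and rose by 1.57 ± 0.45 in Col-0 (adjusted p = 0.0223). Averaged over genotypes, 8 of the 41 rose and 3 fell (AT1G74940, AT5G26200 and AT5G42200), and 12 and 6 with the block. Over all tested genes 15.3% rose and 8.88% fell, and 3253 and 2004 genes did so with the block.

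Of the genes of the oxygen-sensing step, PCO1, PCO2, HRE1 and HRE2 were counted among the 41. PCO2, another cysteine oxidase, was 3.91 ± 0.27 higher in a1a2 after flg22 (log2, SE, adjusted p = 7.5e-05) and 3.78 ± 0.26 higher in mock (adjusted p = 8.5e-05), and HRE2 was 3.20 ± 0.41 higher in mock (adjusted p = 0.00832). Of 7 further genes of this step, the ERF-VIIs RAP2.12, RAP2.2 and RAP2.3, the cysteine oxidases PCO3, PCO4 and PCO5, and PRT6, none was called between the genotypes in either treatment, and none was called after flg22 in a1a2. PRT6 was called after flg22 in Col-0 (0.65 ± 0.11, adjusted p = 0.00131), and its value in a1a2 was 0.49 ± 0.11 (adjusted p = 0.0076), under the threshold of 1.5-fold. ERF-VII protein was not measured in these libraries.

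Over the 12 libraries, the 28 pairs of members had Pearson correlations of log2 CPM between 0.144 and 0.98, with a median of 0.889. The genes outside the set whose profile was most like the mean of the members were PDC1 (r = 0.988), a pyruvate decarboxylase of fermentation, ICL (0.986), isocitrate lyase of the glyoxylate cycle, HRU1 (0.985), ACO1 (0.984) and AT1G33055 (0.98). ICL measured 60.9 ± 34.0 CPM in flg22-treated a1a2, 1.72 ± 0.19 CPM in flg22-treated Col-0, 59.5 ± 32.0 CPM in mock-treated a1a2 and 0.93 ± 0.15 CPM in mock-treated Col-0 (SD, n = 3 each). Taken gene by gene, AT4G24110 was most like CML38 (0.974) and LBD41 most like IMD2 (0.953), an enzyme of leucine synthesis. HB1 was most like PDC1 (0.99), FTM1 (0.988) and HRA1 (0.984) most like AT4G10270, AT2G17850 (0.996) and AT3G27220 (0.968) most like PCO2, and AT1G12805 most like AT3G06435 (0.987). The 12 libraries fall into 4 groups and share replicate numbers, so these values describe the pattern and carry no test. The members were also chosen for a genotype difference in these same libraries, which by itself raises the correlations among them and with other genes that differ likewise.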

How the data were processed

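RNA-seq was done on 3 biological replicates of 4 groups of seedlings. Paired-end reads had been filtered (SOAPnuke) and aligned (HISAT) by the provider, and the submitters' processing notes name TAIR10 and DESeq2. The deposited values are expected counts of each gene, which the authors did not scale to depth. The counting tool and its handling of strand are not given in the sources used here. Fractional values made up 7.5% of the entries, none in the 8 genes. The authors' 4 group averages were not used.

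Counts were rounded. After filterByExpr, 20439 genes remained (3300 removed). Quasi-likelihood F-tests of edgeR 4.0.16 (R 4.3.3) with TMM factors and robust dispersions used a common fit of the 12 libraries, 1 mean for each group. P-values are two-sided, with Benjamini-Hochberg adjustment across every gene tested. DEGs changed by over 1.5-fold at an adjusted p under 0.05. The test was tested on simulated data. Alternatives were other size factors, no filter, DESeq2 1.42.0, a test against 1.5-fold, the 6 libraries compared, each library left out, a replicate block and, chosen after seeing the data, each replicate number left out.

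Same-numbered libraries deviated together from their group means (r = 0.218 to 0.66 over 18 pairs, against -0.549 to 0.155 over 36 pairs of other numbers), so the numbers pair the samples. The pairing comes from the numbers in the labels.

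The members and lists were chosen with earlier results of these data known. All 9 genes were to be named, with the 3 strongest DEGs of the other low-oxygen list per comparison at a mean of at least 1 CPM, the 5 genes most like the members' mean standardised log2 CPM (prior count of 2), the gene most like each member, and ATE1, ATE2 and FRK1. HRE1, HRE2, PRT6, AT3G10020, AT5G26200, AT1G74940, AT5G42200, AT5G24240 and CBP60G are given beyond this rule and were chosen after their values were seen. Promoters come from the RefSeq genome and annotation of TAIR10.1. A promoter element that was also searched is not reported here.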

Additional observations from a re-analysis of the deposited data

Results flagged for a closer look

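The interaction of genotype and flg22 passed the test for AT4G24110 and LBD41 when DESeq2 was fitted with the replicate number as a block. The members were chosen on the genotype difference in mock, which enters the interaction and leans it to negative values, and both genes were known to pass there, so that these adjusted p-values are no independent support. The log2 response in a1a2 minus that in Col-0 was -2.223 for AT4G24110 (adjusted p = 1.25e-05) and -1.4019 for LBD41 (adjusted p = 0.0179), and edgeR's quasi-likelihood test gave an adjusted p = 1 for both, with the block and without it. On the CPM scale both genes gained more in a1a2 than in Col-0, by 88.1 ± 26.1 against 26.6 ± 13.6 CPM for LBD41 and by 68.6 ± 8.69 against 49.8 ± 10.7 CPM for AT4G24110 (SD, n = 3 each).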

How the results depend on the processing

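LBD41 and AT4G24110 rose after flg22 in Col-0 and averaged over genotypes under every alternative run. In a1a2, AT4G24110 lost its call only without the libraries of replicate number 2 (2.72, adjusted p = 0.0634) and LBD41 also in the test against 1.5-fold (adjusted p = 0.0642) and without number 2 (1.53, adjusted p = 0.233). Members called after flg22 numbered 4 in place of 2 in Col-0 with the replicate block and with the 6 libraries compared, 2 to 3 with each library left out. Over all genes the block called 5026 there and the 6 libraries 3882. In Col-0 the members called numbered 3, with HRA1 added as lower, under DESeq2 with and without the block and under scaling to library size alone. Those fits called 4907, 4509 and 5587 genes. In a1a2 the members called numbered 1 in the test against 1.5-fold, 0 without number 2, and 1 to 3 with each library left out. With the block, with DESeq2 and the block, and under scaling alone they numbered 3, with AT3G27220 added as lower. Those fits called 5075, 4942 and 5544 genes. Averaged, the members called numbered 5 in place of 3 with the block and with DESeq2 and the block, and 2 to 3 with each library left out. The block called 5257 genes and DESeq2 with the block 5196. Interaction calls numbered 2 among the members and 4 over all genes with DESeq2 and the block, in place of 0.

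Higher calls of the members between genotypes in mock numbered 0 with the 6 libraries compared, 4, 0 and 1 without replicate numbers 1, 2 and 3, and 0 to 8 with each library left out, in place of 7. After flg22 they numbered 7 with the block, with DESeq2 and with both, 0 without number 2, 0 without number 3, and 0 to 6 with each library left out, in place of 4. Over all genes, DEGs in mock numbered 196 with the block, 103 with DESeq2, 323 with both, 12 with the 6 libraries, 17, 2 and 13 without numbers 1, 2 and 3, and 14 to 35 with each library left out, in place of 34. After flg22 they numbered 169 with the block, 82 with DESeq2 and 275 with both, 3 without number 2, 13 without number 3, and 15 to 34 with each library left out, in place of 28. DEGs of flg22 over all genes numbered 2512 in a1a2, 2445 in Col-0 and 3108 averaged in the test against 1.5-fold, and 2522 in a1a2 and 2494 in Col-0 without number 2, in place of 4326, 4287 and 4946. The causes were not tested.

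Directions reversed for AT3G27220 after flg22 in Col-0 without number 1 (0.0228). With each library left out, the change after flg22 in a1a2 ran from -1.57 to 0.33 for FTM1 and from -1.29 to 0.31 for AT2G17850, and the interaction from -0.70 to 1.43 for FTM1 and from -0.65 to 0.33 for HB1. Scaling to library size alone shifted the median log2 change of all genes by -0.254 in a1a2 and -0.249 in Col-0, and no member reversed under it. The block changed no other call of a member after flg22 than those given.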
